A study of Mus musculus with 12 samples.

Results

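The genes described here are 10 genes that Leydig cells use to make steroids or by which these cells are recognised, namely Star, Cyp11a1, Cyp17a1, Hsd3b1, Hsd3b6, Hsd17b3, Insl3, Lhcgr, Cyp21a1 and Nr5a1. They were chosen by gene symbol, and all 10 were found among the 20788 genes of the table. All 10 also passed the filter on low counts, which left 16388 genes for testing. RNA-seq of testes from F1 male mice gave 12 libraries in 4 groups of 3. The labels call the groups 3NC, 5NC, lncRNA5251 knockdown and lncRNA5251 overexpression, and the last pair are called KD and OV here. Per the study's methods, the F1 males were 8 weeks old and were sired by ICR males whose testes had been injected with lentivirus at 4 weeks, and the dams were untreated. The labels write the strain as "IRC mouse", whereas the series description reads as if the virus had been given to the F1 testes.

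The sires of the KD group received lentivirus carrying hairpins against lncRNA5251, of which the study lists 3, and those of the 3NC group received a control hairpin in the same vector. The sires of the OV group received a virus that expresses lncRNA5251, and those of the 5NC group received the empty overexpression vector. So every group, controls included, descends from injected testes, and no group without virus was used. KD was therefore compared with 3NC, and OV with 5NC. Whether each library stands for its own animal is not stated in the labels, so the p-values rest on the spread between libraries, which may be technical. lncRNA5251 itself was not analysed here, so the labels KD and OV were not checked against its level.

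Leydig cells lie between the seminiferous tubules and make testosterone when luteinising hormone binds the receptor encoded by Lhcgr. Star moves cholesterol into mitochondria, where the side-chain cleavage enzyme Cyp11a1 turns it into pregnenolone. Enzymes encoded by Hsd3b1, Hsd3b6, Cyp17a1 and Hsd17b3 then lead to testosterone. Nr5a1 encodes steroidogenic factor 1, a nuclear receptor that drives many of these genes, and Insl3 encodes a peptide hormone needed for testis descent. Cyp21a1 encodes steroid 21-hydroxylase, which is best known from the adrenal cortex, where it takes the pathway towards corticosterone and aldosterone. In whole testis RNA, fewer Leydig cells and less RNA per Leydig cell cannot be told apart.

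Per GENCODE vM21 on GRCm38, the same build as mm10, the members lie on 7 chromosomes. Hsd3b1 (chr3:98852194-98859794) and Hsd3b6 (chr3:98805504-98814443) lie near each other on the minus strand of chromosome 3. Insl3 (chr8:71689214-71690575, plus strand) ends at the same base as Jak3 (chr8:71676296-71690575, plus strand), inside which it lies. Cyp21a1 (chr17:34801348-34804561, minus strand) has 10 exons and lies on chromosome 17 near a pseudogene copy, Cyp21a2-ps (chr17:34719813-34722252). Star and Insl3 share chromosome 8, Cyp21a1 and Lhcgr share chromosome 17, and the others lie on chromosomes 2, 9, 13 and 19. A stretch of transcript shared between genes limits what their counts can tell.

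Of the 35-base words in Insl3 transcripts, 62.8% also occur in Jak3. The share was 30.6% between Cyp21a1 and Cyp21a2-ps, and 20.7% between Hsd3b6 and its relative Hsd3b2. Hsd3b1 shared 4.92% of its words with Hsd3b6, and Star, Cyp17a1, Hsd17b3 and Nr5a1 shared none with any other gene. The coding sequences of Hsd3b1 and Hsd3b6 were identical at 1010 of 1122 bases (90.0%). Cyp21a1 and its pseudogene were identical at 1334 of 1365 aligned bases (97.7%). The sequences below show some of the bases by which reads can separate these pairs. For Hsd3b1 and Hsd3b6 they are the first 60 coding bases, which differ at 7 positions (chr3:98857905-98857964 in exon 3 and chr3:98810987-98811046 in exon 2, both minus strand). For Cyp21a1 and Cyp21a2-ps they are the 60 aligned bases with the most differences, 5 in all (chr17:34801796-34801855 in exon 10 and chr17:34719838-34719897 in exon 9, both minus strand). All are read 5′ to 3′ from GENCODE transcripts, and capitals mark the bases that differ within a pair.
Hsd3b1: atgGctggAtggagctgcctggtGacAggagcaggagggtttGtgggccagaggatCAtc
Hsd3b6: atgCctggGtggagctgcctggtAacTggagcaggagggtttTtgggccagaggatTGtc
Cyp21a1: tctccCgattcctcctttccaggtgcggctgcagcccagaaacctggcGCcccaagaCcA
Cyp21a2-ps: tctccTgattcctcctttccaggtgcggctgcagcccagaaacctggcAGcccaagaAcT

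Of the genes that share these words, Hsd3b2 and Hsd3b3 had 2 and 3 reads over all 12 libraries, whereas Hsd3b6 had 23.1 to 57.1 CPM (reads scaled to a common library size, with TMM factors) in each. Jak3 averaged 9.69 CPM over the 12 libraries, against 607.1 for Insl3. Cyp21a2-ps was not found by symbol among the genes of the table. Reads from it therefore cannot be told apart from those of Cyp21a1 where the sequences are the same.

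The KD hairpins are shown because they define that group. Each has 21 bases, and capitals mark one longest run found in the sense strand of the members' transcripts, which for hairpins 1, 2 and 3 is that in Cyp11a1, Star and Lhcgr.
Hairpin 1: gCTGGGACTTAAtgtccttct
Hairpin 2: GCATGGGCaattcaaacaaat
Hairpin 3: gcTTATTATGcatcgtaaacc
The longest runs were 11 bases of hairpin 1 in Cyp11a1 and in Lhcgr, 8 bases of hairpin 2 in Star and in Lhcgr, and 8 bases of hairpin 3 in Lhcgr and in Nr5a1. Lhcgr is named for all 3 hairpins and also has the longest transcript among the members, with 6828 bases.

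Depth was 12719699 to 15771655 estimated reads per library. Levels of different genes are compared here in the authors' RPKM, which divides by transcript length. Insl3, the peptide hormone, had the highest level, with a mean of 1347 RPKM and a range of 836.4 to 1629. It made up 60.1 to 81.9% of the summed RPKM of the 10 genes in a library. Cyp17a1, whose enzyme has both 17-hydroxylase and lyase activity, came next with a mean of 307.6 RPKM. Both stood above the next gene in all 12 libraries.

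Cyp11a1 followed with a mean of 103.5 RPKM, and Hsd3b1 with 70.7 RPKM. Their order was less certain, since Cyp11a1 exceeded Hsd3b1 in 9 of 12 libraries. Hsd17b3, the enzyme of the last step to testosterone, had 47.0 RPKM, Star had 34.3 and Hsd3b6 had 23.6. Hsd17b3 exceeded Star in 10 of 12 libraries, and Star exceeded Hsd3b6 in 11 of 12. The lowest 3 were Nr5a1 with 12.5 RPKM, Lhcgr with 5.17 and Cyp21a1 with 4.43. Lhcgr exceeded Cyp21a1 in 8 of 12 libraries, so this last pair had no fixed order either. In all 3 KD libraries Cyp21a1 was above Lhcgr, with 8.58, 7.44 and 4.81 RPKM against 2.56, 2.76 and 1.94. The same held in OV replicate 1, with 4.90 against 3.45 RPKM.

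**Figure D1:**
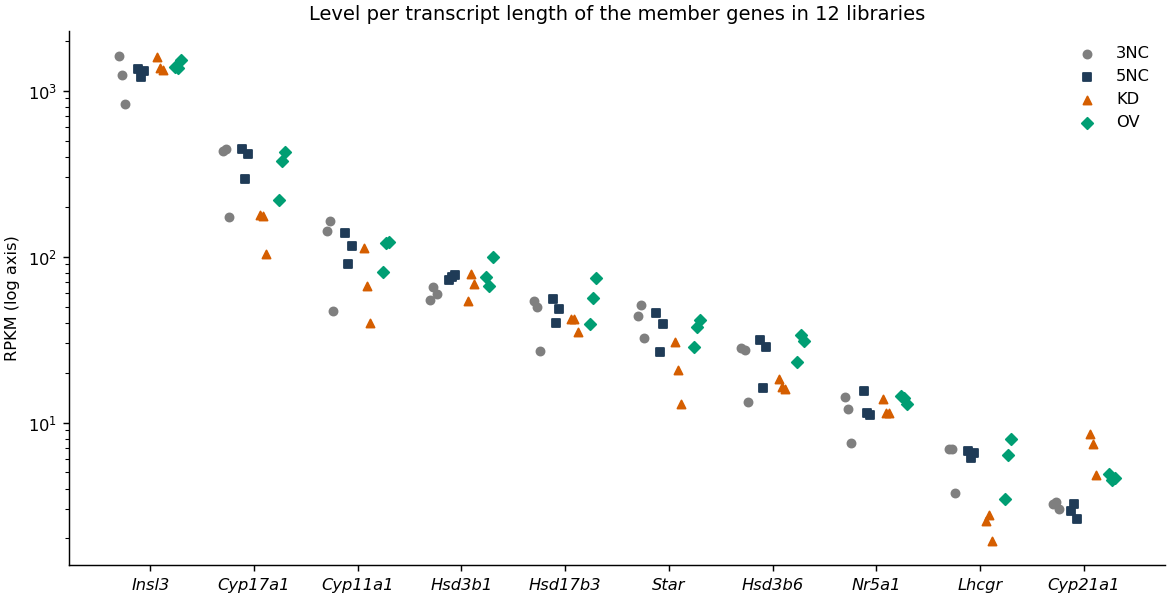
RPKM (log axis) of the 10 genes in each of 12 libraries, ordered by mean, with 1 point per library and a colour and shape per group. Insl3 and Cyp17a1 lie above the other genes, and the KD points of Lhcgr lie below those of Cyp21a1.

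The first comparison asks whether the testes of the KD lineage differ from 3NC in these genes. Mean levels of Lhcgr, Cyp17a1 and Star were lower in KD, by 0.97 to 1.20 on the log2 scale, and that of Cyp21a1 was higher by 1.13. The other 6 genes differed by -0.66 to 0.25. None of the 10 members passed the test (edgeR's quasi-likelihood test, Benjamini-Hochberg adjusted over 16388 genes), and neither did any other gene (0% called). At an unadjusted p under 0.05 there were 4 members, 1 higher and 3 lower, where 5.64% of all genes tested were. DESeq2 called 1 member, Cyp21a1, among 0.0789% of genes called by that tool. The median log2 fold change of the members was -0.26, and that of all genes tested was -0.02.

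Lhcgr, the receptor for luteinising hormone, measured 16.0, 14.8 and 10.3 CPM in 3NC replicates 1 to 3, and 5.88, 7.11 and 4.86 CPM in KD. All 3 KD libraries lay below all 3NC libraries, and below all 5NC and OV libraries too, the lowest of which was OV replicate 1 at 9.01 CPM. The log2 fold change was -1.20 ± 0.30 (SE, n = 3 per group), with an adjusted p of 0.764 by edgeR. Groups failed to overlap, with KD lower than 3NC, for 3 members, against 6.36% of all genes tested. The share of all genes with KD below the libraries of all other groups was not counted. The ratio of CPM to RPKM of Lhcgr varied between libraries, and on the RPKM scale KD (1.94 to 2.76) was likewise below 3NC (3.74 to 6.95).

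Nr5a1, the transcription factor, measured 40.5, 32.1 and 22.7 CPM in 3NC and 38.7, 32.9 and 33.3 CPM in KD. The KD values lie within the range of 3NC, and the log2 fold change was 0.14 ± 0.19. It depended on single 3NC libraries, with 0.36 without 3NC replicate 1 and -0.04 without 3NC replicate 3.

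Star, the cholesterol carrier, measured 171.1, 187.6 and 131.2 CPM in 3NC and 116.0, 82.2 and 51.5 CPM in KD. The groups did not overlap, and KD replicate 1 came nearest to 3NC. Its log2 fold change was -0.97 ± 0.28 (adjusted p = 0.764 by edgeR). Without KD replicate 1 it was -1.29, and without KD replicate 3 it was -0.72.

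Cyp11a1, which acts just after Star, measured 235.9, 252.0 and 81.4 CPM in 3NC and 180.4, 112.5 and 67.5 CPM in KD. Here 3NC replicate 3 fell among the KD values, and the log2 fold change of -0.66 ± 0.41 has a 95% confidence interval from -1.56 to 0.24. Leaving out 1 library at a time gave -1.08 (without KD replicate 1) to -0.38 (without KD replicate 3), with -1.02 without 3NC replicate 3 and -0.40 without 3NC replicate 2. Cyp17a1 measured 747.3, 716.1 and 308.9 CPM in 3NC and 297.4, 308.7 and 183.1 CPM in KD. The groups only just failed to overlap, since 3NC replicate 3 and KD replicate 2 were almost equal. In RPKM they did overlap, with 173.0 in 3NC replicate 3 and 178.5 in KD replicate 1. Its log2 fold change was -1.17 ± 0.35 (adjusted p = 0.764 by edgeR), and -1.46 without 3NC replicate 3.

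The pair of 3-beta-hydroxysteroid dehydrogenases gave different values. Hsd3b1 measured 94.7, 103.8 and 104.3 CPM in 3NC and 88.3, 135.3 and 119.1 CPM in KD, a log2 fold change of 0.18 ± 0.16. Hsd3b6 measured 47.5, 42.6 and 23.1 CPM in 3NC and 29.8, 27.9 and 27.1 CPM in KD, a log2 fold change of -0.42 ± 0.28. For both, the groups overlapped. Leaving out 1 library at a time gave 0.04 (without KD replicate 2) to 0.33 (without KD replicate 1) for Hsd3b1. For Hsd3b6 it gave -0.66 (without 3NC replicate 3) to -0.21 (without 3NC replicate 1). Hsd17b3 measured 62.5, 53.3 and 32.3 CPM in 3NC and 46.9, 48.9 and 41.5 CPM in KD, all within the range of 3NC. Insl3 measured 741.7, 517.9 and 394.4 CPM in 3NC and 704.5, 642.8 and 625.3 CPM in KD, again within the range of 3NC. These 2 genes had log2 fold changes of -0.11 ± 0.25 and 0.25 ± 0.18. Without 3NC replicate 1 they were 0.11 and 0.54, and without 3NC replicate 3 they were -0.33 and 0.07, so the sign for Hsd17b3 and the size for Insl3 rest on single 3NC libraries.

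Cyp21a1, the 21-hydroxylase, was the member with the smallest p. It measured 5.82, 5.59 and 5.67 CPM in 3NC and 15.0, 13.6 and 8.85 CPM in KD. The 3NC libraries were close to each other, and each KD library was above them, with the smallest excess in KD replicate 3. KD was higher without overlap for 1 member, against 4.95% of all genes tested. The log2 fold change was 1.13 ± 0.19 (95% confidence interval 0.72 to 1.54), a fold of 2.19, with an adjusted p of 0.576 by edgeR and of 0.0031 by DESeq2. The edgeR value ranged from 0.0342 without KD replicate 3, where 0.0119% of all genes were called, to 0.982 without KD replicate 2. These counts rest on 84 to 90 estimated reads per library in 3NC and 131 to 237 in KD.

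**Figure D2:**
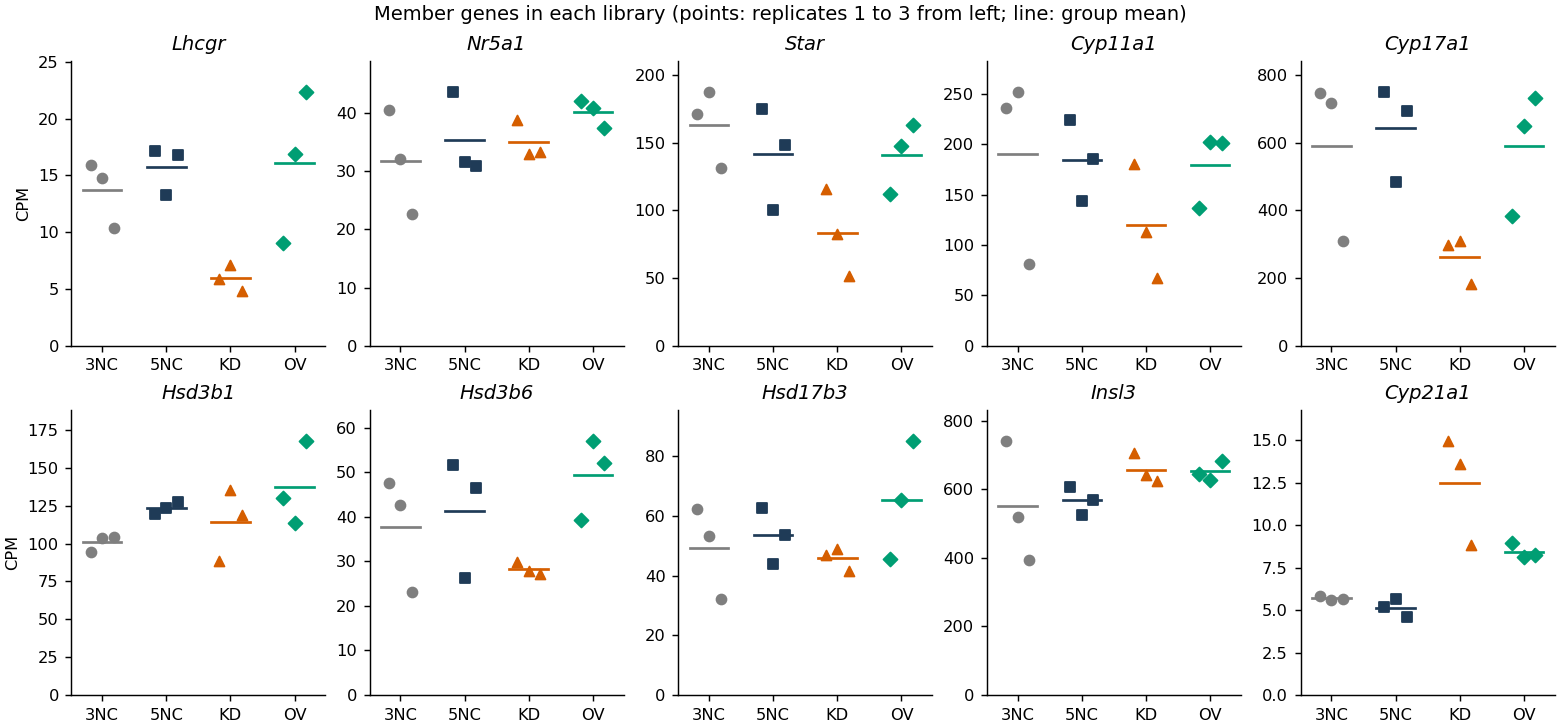
CPM of each gene in each library, with replicates 1 to 3 from left to right and a line at the group mean, each panel on its own axis from 0. KD lies lowest for Lhcgr, and for Cyp21a1 the 6 KD and OV libraries lie above the 6 control libraries.

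Library 3NC replicate 3 was low for most members, which touches every comparison with 3NC. Its summed RPKM of the 10 genes was 1203, and the other 11 libraries had 1629 to 2410. Another 11 Leydig cell markers summed to 338.8 RPKM in it and to 846.0 and 862.6 in the other 3NC libraries. They summed to 571.6, 433.7 and 535.7 RPKM in KD, and 6 of the 11 were lower in KD at an unadjusted p under 0.05, where 5.64% of all genes had such a p in either direction, and none passed after adjustment by edgeR. The list did not move as one, since Fabp3, Inha and Vcam1 had log2 fold changes of 0.10 ± 0.23, 0.13 ± 0.17 and 0.31 ± 0.37. DESeq2 called 2 of them, Klk1b21 and Klk1b27, where it called 0.0789% of all genes, with log2 fold changes of -3.31 ± 0.66 and -3.64 ± 0.78 by edgeR. The same 11 markers summed to 791.8 to 972.8 RPKM in 5NC and 557.3 to 844.6 RPKM in OV. Of them 2, Klk1b21 and Klk1b27, were lower in OV at an unadjusted p under 0.05, where 11.9% of all genes had such a p in either direction. In OV 0 of the 11 were called by either tool, where edgeR called 0.311% and DESeq2 1.75% of all genes. Macrophage markers summed to 364.9 RPKM in 3NC replicate 2 and 529.0 in KD replicate 1, and to 64.9 to 108.4 in the other 10 libraries. Without both of these libraries the log2 fold changes of Lhcgr, Star, Cyp17a1 and Cyp21a1 were -1.13, -1.18, -1.10 and 0.97 (adjusted p = 0.904 for each by edgeR).

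OV was compared with 5NC in the same fit. Cyp21a1 was the member with the largest difference, higher in OV by 0.72 on the log2 scale, and the other 9 members differed by -0.13 to 0.29. None of the 10 members passed the test by edgeR or DESeq2, where edgeR called 0.311% and DESeq2 1.75% of all genes. At an unadjusted p under 0.05 there was 1 member, against 11.9% of all genes tested. The groups did not overlap for 2 members, Cyp21a1 and Insl3, both higher in OV, against 21.3% of all genes in either direction. The median log2 fold change was 0.17, and that of all genes -0.01.

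Cyp21a1 measured 5.18, 5.63 and 4.58 CPM in 5NC and 8.94, 8.13 and 8.25 CPM in OV. The spread within each group was small beside the gap between them. The log2 fold change was 0.72 ± 0.19 (95% confidence interval 0.31 to 1.13), a fold of 1.65, with an adjusted p of 0.156 by edgeR and 0.0706 by DESeq2. Over the 14 alternatives the adjusted p was 0.0696 to 0.505. Insl3 measured 606.4, 526.2 and 569.4 CPM in 5NC and 644.9, 628.2 and 683.1 CPM in OV. The log2 fold change of Insl3 was 0.20 ± 0.18, and Jak3, which shares sequence with it, measured 10.01 ± 2.40 CPM in 5NC and 5.79 ± 0.63 CPM in OV (SD, n = 3).

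For the 3 members with the lowest KD fold changes, OV overlapped with 5NC. Lhcgr measured 17.2, 13.3 and 16.8 CPM in 5NC and 9.01, 16.8 and 22.4 CPM in OV. Star measured 175.1, 100.3 and 148.3 CPM in 5NC and 112.3, 147.4 and 162.7 CPM in OV. Cyp17a1 measured 750.9, 484.0 and 693.1 CPM in 5NC and 384.6, 650.7 and 732.5 CPM in OV. In each of them OV replicate 1 was the lowest OV library. The log2 fold changes were 0.03 ± 0.29, -0.005 ± 0.28 and -0.13 ± 0.34 for Lhcgr, Star and Cyp17a1, and their 95% confidence intervals still allow changes from -0.87 to 0.66.

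Cyp11a1 measured 224.2, 143.9 and 184.9 CPM in 5NC and 136.2, 202.0 and 201.0 CPM in OV, Hsd3b6 51.7, 26.2 and 46.4 against 39.3, 57.1 and 52.0 CPM. Hsd17b3 measured 62.8, 43.9 and 53.7 CPM in 5NC and 45.6, 65.5 and 85.2 CPM in OV. Nr5a1 measured 43.6, 31.6 and 30.8 CPM in 5NC and 42.0, 40.8 and 37.3 CPM in OV. Values of these 4 genes overlapped between the groups, as did those of Hsd3b1, with 119.5 to 127.2 CPM in 5NC and 113.5 to 168.0 CPM in OV.

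**Figure D3:**
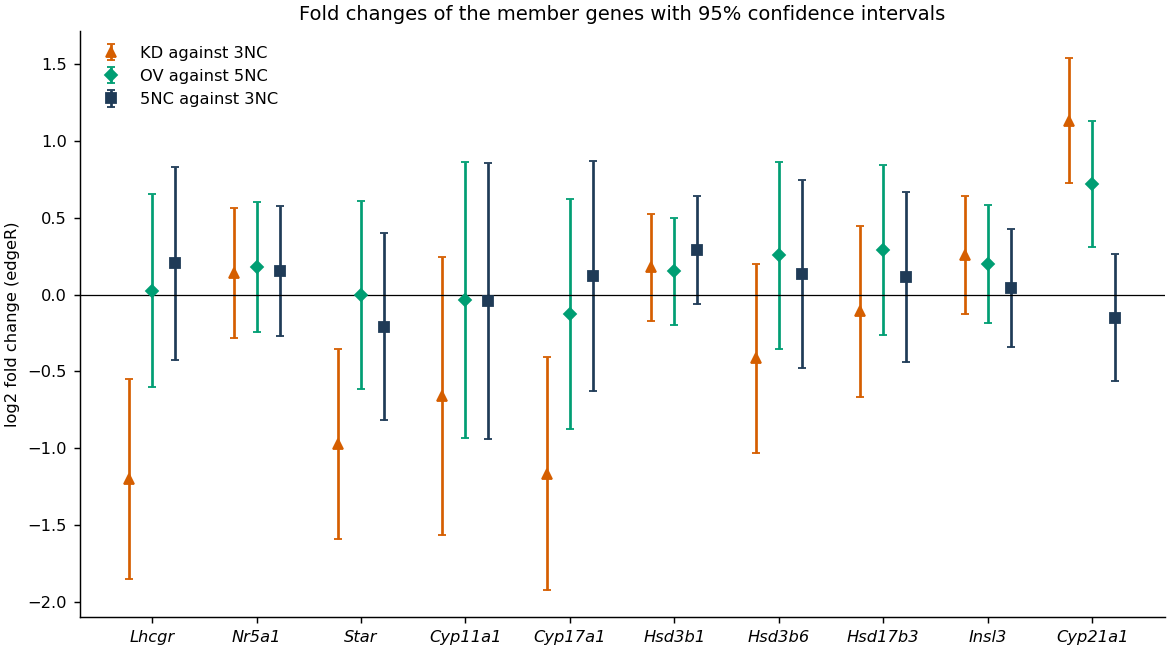
Log2 fold changes by edgeR with 95% confidence intervals for KD against 3NC, OV against 5NC and 5NC against 3NC, with genes ordered by role. The intervals of Cyp21a1 lie above 0 for KD and OV, and those of Lhcgr, Star and Cyp17a1 lie below 0 for KD only.

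Between the control groups, the members differed by -0.21 (Star) to 0.29 (Hsd3b1) on the log2 scale in 5NC against 3NC. None passed the test by edgeR or DESeq2, where 0.128% of all genes did by edgeR and 1.10% by DESeq2, and none had an unadjusted p under 0.05, against 10.8% of all genes. Hsd3b1 was the 1 member whose control groups did not overlap, higher in 5NC, against 13.0% of all genes in either direction. It measured 94.7 to 104.3 CPM in 3NC and 119.5 to 127.2 CPM in 5NC. Cyp21a1 measured 5.70 ± 0.12 CPM in 3NC and 5.13 ± 0.53 CPM in 5NC (SD, n = 3), a log2 fold change of -0.15 ± 0.19.

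The effect of KD against 3NC and that of OV against 5NC were then compared in 1 contrast. None of the members passed the test by edgeR or DESeq2, where edgeR called 0.0244% and DESeq2 0.245% of all genes. At an unadjusted p under 0.05 there were 2 members, Lhcgr and Star, with differences of -1.23 ± 0.41 and -0.97 ± 0.39 on the log2 scale, against 4.63% of all genes. For Cyp17a1 the difference was -1.04 ± 0.48. For Cyp21a1, higher in both lineages, the difference was 0.41 ± 0.26, with a 95% confidence interval from -0.16 to 0.99. Whether the effects of KD and OV on Cyp21a1 differ is thus undecided here.

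Across the groups, the 6 control libraries held 4.58 to 5.82 CPM of Cyp21a1, and the 6 KD and OV libraries held 8.13 to 15.0 CPM. Of all genes tested, 0.336% were higher in both KD and OV than in both vector controls without overlap. Cyp21a1 was the only member with this pattern. The 9 genes around it on chromosome 17 that were looked at were C4a, C4b, Tnxb, Stk19, Dxo, Skiv2l, Nelfe, Cfb and C2. None of these 9 passed the edgeR test in either lineage, where 0% of all genes did in KD and 0.311% in OV. Cyp21a1 itself did not pass it either, so this test does not set it apart from its neighbours. The log2 fold changes of the neighbours were -0.47 to 0.50 in KD and -0.44 to 0.87 in OV. In OV 1 neighbour, Dxo, was higher than in 5NC without overlap, against 21.3% of all genes in either direction.

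Other markers of the adrenal cortex had few reads. Cyp11b1 and Cyp11b2, which make corticosterone and aldosterone there, had 19 and 4 reads over all 12 libraries, and Mc2r, the receptor for adrenocorticotropic hormone, had 14. Akr1b7, an aldo-keto reductase that is also on the list of Leydig cell markers, had 131, with 2 to 21 reads per library, and was the 1 adrenal marker that could be tested (log2 fold change -0.33 ± 0.73 in KD and -0.22 ± 0.71 in OV). Summed over 4 adrenal markers, these levels were 0.51 to 0.89 RPKM in 3NC, 0.45 to 1.43 in 5NC, 0.32 to 1.25 in KD and 0.58 to 0.89 in OV, so the ranges overlapped. Epididymis markers were lower in KD and OV than in the controls, apart from an overlap of KD replicate 1 with 5NC replicate 1. Their sum over 6 genes, of which 4 were tested, was 23.2 to 58.1 RPKM in 3NC, 11.0 to 215.5 in 5NC, 0.66 to 13.0 in KD and 0.30 to 0.74 in OV. All 4 (Rnase9, Crisp1, Adam7 and Spint3) were lower at an unadjusted p under 0.05 in both lineages, where 5.64% of all genes in KD and 11.9% in OV had such a p. In KD 0 were called by either tool, with a median log2 fold change of -2.69. In OV 1 of them, Spint3, was called by edgeR and all 4 by DESeq2, where these tools called 0.311% and 1.75% of all genes, with a median of -6.75. The part of epididymis RNA in the Cyp21a1 result was not tested.

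**Figure D4:**
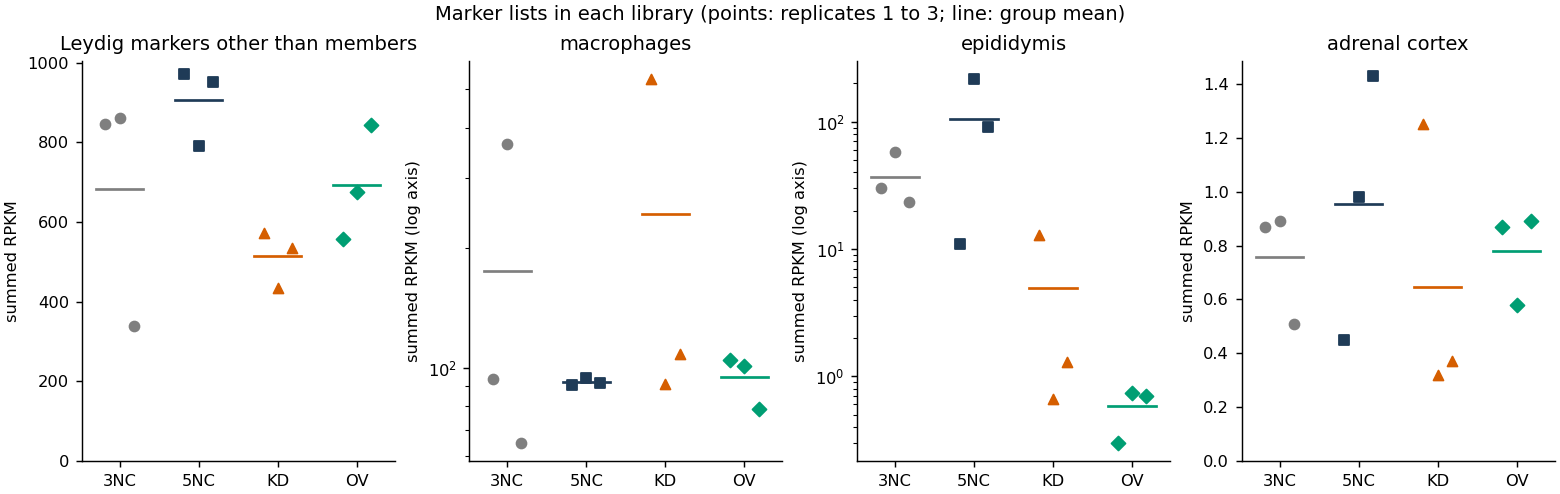
Summed RPKM of marker lists in each library, with replicates 1 to 3 from left to right and a line at the group mean, on log axes for macrophages and epididymis. Epididymis markers are lower in OV than in both control groups, 3NC replicate 2 and KD replicate 1 stand out for macrophages, and adrenal markers stay at or under 1.43 RPKM.

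Ratios between members within a library do not depend on its total and are given as a description, with no test. The RPKM ratio of Cyp17a1 to Insl3 was 0.266, 0.358 and 0.207 in 3NC, and 0.331, 0.242 and 0.319 in 5NC. It was 0.112, 0.128 and 0.0782 in KD and 0.159, 0.276 and 0.279 in OV. All 3 KD libraries lay below the other 9, including 3NC replicate 3, the library in which most members were low. The ratio of Star to Insl3 was 0.0268 to 0.0412 in 3NC, 0.0220 to 0.0341 in 5NC, 0.0097 to 0.0191 in KD and 0.0205 to 0.0276 in OV, again with KD lowest. Cyp21a1 amounted to 6.38 to 12.2% of the Star level in the 6 control libraries, to 28.0 to 37.1% in KD and to 11.0 to 17.2% in OV. The Hsd3b6 to Hsd3b1 ratio was 0.209 to 0.339 in KD and 0.214 to 0.515 elsewhere, so these ranges overlapped.

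**Figure D5:**
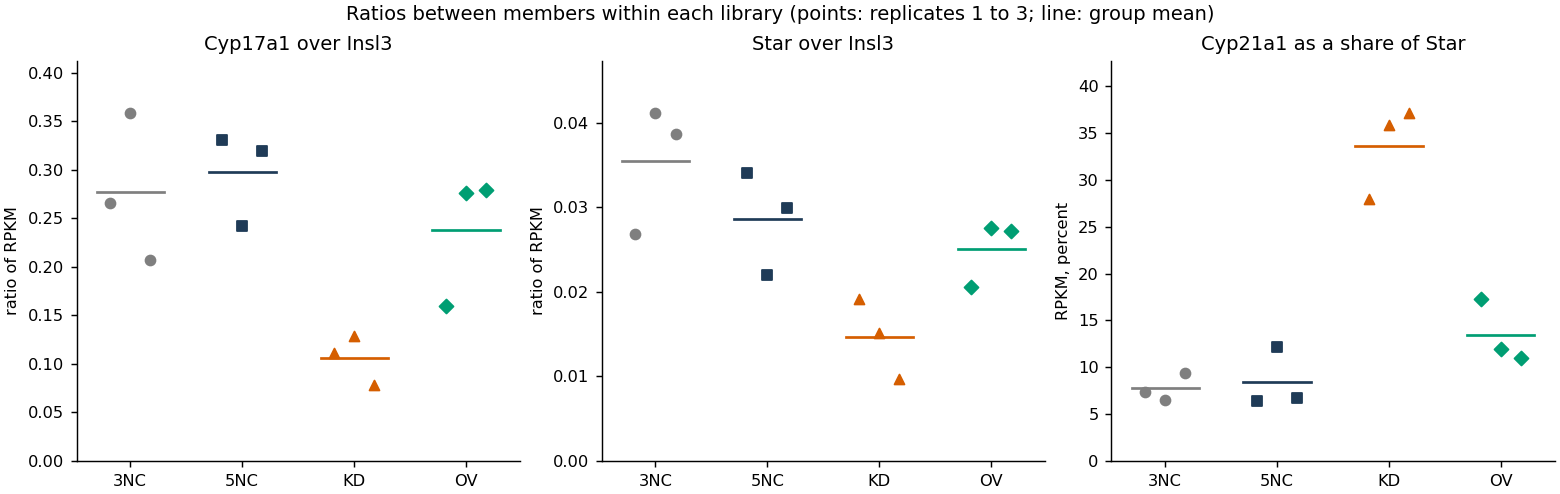
Ratios of RPKM within each library, with replicates 1 to 3 from left to right and a line at the group mean, on axes from 0. For Cyp17a1 and Star over Insl3 the 3 KD libraries lie below the other 9, and Cyp21a1 as a share of Star is highest in KD.

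Members differed in how far they varied over the 12 libraries. The coefficient of variation of CPM was 15.6% for Insl3, 16.96% for Nr5a1 and 17.7% for Hsd3b1, and 41.2% for Cyp17a1, 42.0% for Lhcgr and 42.2% for Cyp21a1. The low-variation members thus include both the most abundant one and the transcription factor. After group means were removed, Pearson's r of log2 CPM was 0.94 between Cyp17a1 and Hsd17b3 and 0.92 between Cyp11a1 and Cyp17a1. Hsd3b1 and Nr5a1 had -0.44. These are descriptions over 12 libraries that share the low library 3NC replicate 3.

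The rest of the pathway was read from 57 further genes for cholesterol supply, electron transfer, other steroid conversions and control of Leydig cells, of which 49 were tested. By edgeR 0 of 49 passed in any of the 4 contrasts. At an unadjusted p under 0.05, 0 were higher and 4 lower in KD, namely Cyp51, Soat1, Fdx1 and Prlr, at -0.73 to -0.33 on the log2 scale, where 5.64% of all genes had such a p. In OV there were 3 higher, Cyp51, Acbd3 and Hsd17b1, and 2 lower, Srd5a1 and Cyb5a, at -0.59 to 1.04, where 11.9% of all genes had such a p. DESeq2 called 0 in KD, Cyp51 in OV and in the difference of effects, and Cyp51 and Srd5a1 in 5NC against 3NC, where it called 0.0789% of all genes in KD, 1.75% in OV, 0.245% in the difference and 1.10% in 5NC against 3NC. These genes beside Cyp51, Srd5a1 and Cyb5a were named after their values were seen. The median log2 fold change was -0.08 in KD and 0.02 in OV.

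Cyp51, a demethylase of cholesterol synthesis, had the smallest p among lower genes in KD and among higher genes in OV. Its levels were 159.8, 146.0 and 126.4 CPM in 3NC and 114.4, 118.2 and 110.7 CPM in KD, a log2 fold change of -0.33 ± 0.10 (adjusted p = 0.764 by edgeR). They were 98.6, 92.0 and 108.9 CPM in 5NC and 118.6, 134.7 and 136.4 CPM in OV, a log2 fold change of 0.38 ± 0.10 (adjusted p = 0.158 by edgeR). Neither pair of groups overlapped. The controls differed as well, with Cyp51 lower in 5NC by 0.53 ± 0.10 (adjusted p = 0.0826 by edgeR), and the means of KD and OV lay between those of 3NC and 5NC.

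Srd5a1, a 5-alpha-reductase, was at 3.11 to 3.51 CPM in 3NC, 6.30 to 7.74 in 5NC, 2.23 to 3.16 in KD and 4.05 to 5.20 in OV. Its control groups differed by 1.10 ± 0.19 on the log2 scale (adjusted p = 0.0593 by edgeR), and OV was lower than 5NC by 0.59 ± 0.18 (adjusted p = 0.214). Nr4a1, an orphan nuclear receptor of Leydig cells, had the smallest p among genes higher in KD, with a log2 fold change of 0.47 ± 0.26. Cyb5a, the cytochrome that helps the lyase step of Cyp17a1, had the smallest p among genes with a higher KD effect than OV effect, with a difference of 0.34 ± 0.24 (adjusted p = 0.9999 by edgeR).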

How the data were processed

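Total RNA of 12 F1 mouse testes libraries, 3 per group by the sample titles, was sequenced. Per the methods, the authors enriched messenger RNA with oligo(dT) and used SOAPaligner 2.20 to align reads to mouse genes, with mm10 as the build named in the labels. The deposited table holds estimated counts with fractions for 11.6 to 12.6% of genes, and RPKM values computed by the authors. The methods give an aligner option for reporting reads with several matches, but not how such reads became the fractional counts. The table's 18 further per-sample columns, of 9 other libraries, were not used.

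Estimated counts were rounded and filtered with filterByExpr. All 12 libraries entered 1 fit without covariates, with TMM scaling and edgeR 4.0.16 in R 4.3.3 (glmQLFit, glmQLFTest, biological coefficient of variation 22.9%, 8 residual degrees of freedom). P-values were adjusted by Benjamini-Hochberg over 16388 genes, with a threshold of 0.05. Errors are SE unless given as SD. The script was tested on simulated counts. Alternatives were DESeq2 1.42.0, RLE scaling, no filter, a replicate block, fewer libraries, and limma 3.58.1. The limma fits used log2(RPKM + 0.1) or log2(RPKM + 1) with a minimum of 0.5 RPKM in 3 libraries, and log2(RPKM + 0.1) without that minimum. The gene table's values are called RPKM here as in the methods, whereas the alternatives had been planned under the name FPKM. At 12719699 to 15771655 reads per library, genes with few reads have wide counting error.

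The members, the marker and pathway lists and the alternatives were chosen with earlier results of these data known. All members are named; of the other pathway genes those that passed, or else, per contrast, the gene with the lowest p among those higher and among those lower; the neighbours of Cyp21a1 by their range. Genes most like a member pattern are the 5 with the highest Pearson's r of log2 CPM over 12 libraries. Marker genes outside this were named after their values were seen.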

Additional observations from a re-analysis of the deposited data

How the results depend on the processing

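The count of members called in KD against 3NC was 0 in edgeR and 1 (Cyp21a1) by DESeq2. Leaving out 1 library at a time gave 0 to 1, the 1 being Cyp21a1 without KD replicate 3, and the cause was not tested. The counts for OV against 5NC, for 5NC against 3NC and for the difference of effects stayed at 0 under every alternative run. Of the members' fold changes under alternatives, 623 values stayed within 1 SE of the reported one on the same side of the threshold, 15 moved further and 2 became called. The 2 called values, both of Cyp21a1 in KD, kept their sign. Some values that were not called changed sign, as for Lhcgr in OV, at -0.28 to 0.32 over the alternatives. The log2 fold change of Cyp21a1 was 0.89 to 1.33 in KD and 0.53 to 0.79 in OV over the alternatives. With a replicate block 0 members were called in each contrast, and Cyp21a1 had a log2 fold change of 1.11 in KD. Correlations of deviations between same-numbered libraries were -0.64 to 0.39 for KD and 3NC, -0.12 to 0.20 for OV and 5NC, and -0.01 to 0.31 for 5NC and 3NC. Between differently numbered libraries they were -0.58 to 0.77, -0.31 to 0.23 and -0.27 to 0.07. In none of these did every same-numbered pair pass 0.1, and not every library correlated best with its own number, so the libraries were taken to share only a number. The fit of only the groups compared was not run for the difference of effects, which uses all 12 libraries. Depth limits Cyp21a1 and Lhcgr most, the members with the fewest reads.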

Other observations

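The genes whose log2 CPM over the 12 libraries was most like the mean of the 9 members other than Cyp21a1 were Rhbg, Scd2, Efnb1, Ass1 and Cyp7a1, with Pearson's r of 0.93, 0.92, 0.92, 0.91 and 0.90. Ass1, argininosuccinate synthase, averaged 127.6 CPM in the 6 control libraries and 90.3 CPM in the 6 KD and OV libraries. Cyp7a1, the rate-limiting enzyme of bile acid synthesis, had means of 0.84 and 1.002 CPM in the same sets. For Cyp21a1 the most alike were Padi4, Gm35060, Tmem79, Mgat3 and Arid3a, with r of 0.95, 0.93, 0.91, 0.90 and 0.90. Padi4, a peptidylarginine deiminase, averaged 0.61 CPM in the controls and 1.65 CPM in KD and OV. None of these is a member of the pathway lists. These values describe 12 libraries, were picked as the highest of all genes tested, and carry no test.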
